A study of Mus musculus with 2 samples.

Results

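The transcripts of 7 digestive enzymes of the intestinal brush border, Sis, Lct, Alpi, Anpep, Mgam, Treh and Dpp4, were measured in single cells of the mouse small intestine. The enzymes were chosen by name, and all 7 were found among the 31055 genes of the count table, as Sis (ENSMUSG00000027790), Lct (ENSMUSG00000026354), Alpi (ENSMUSG00000079440), Anpep (ENSMUSG00000039062), Mgam (ENSMUSG00000068587), Treh (ENSMUSG00000032098) and Dpp4 (ENSMUSG00000035000). The brush border is the carpet of microvilli on the luminal face of the absorptive enterocyte, and its enzymes are anchored in the microvillus membrane, where they finish the digestion of sugars, peptides and phosphate esters next to the transporters that take up the products. In the small intestine, enterocytes arise from stem cells at the crypt base, divide as transit-amplifying cells and mature while they move up onto the villus, and brush border hydrolases are textbook markers of that maturation. Goblet cells, which secrete mucus, and enteroendocrine cells, which secrete hormones, arise from the same stem cells.

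The cells came, per the labels, from 1 mouse carrying the alleles ChgaCreER-tdTomato and Rosa26LSL-eYFP, in which a tamoxifen-activated Cre is driven from Chga, which encodes chromogranin A of hormone granules, and switches on eYFP in Chga-expressing cells and the cells that descend from them. Tamoxifen was injected on 5 days at 1 mg per day. Cells positive for eYFP and a bulk epithelial sort, both from crypts, were stained with hashtag antibodies, pooled and sequenced as 1 gene expression library and 1 hashtag library with shared barcodes. All groups below therefore share the genotype, the treatment and the library, and the mouse's age and strain background are not given in the sources used here.

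Cells were grouped by unique molecular identifiers (UMIs, counted transcripts). Cells with fewer than 20 UMIs of Chga were divided by the share of their UMIs from Apoa1, Apoa4 and Rbp2, genes of lipid and retinoid handling in enterocytes. The low bin (below 0.01%) held 1471 cells, the middle bin (0.01 to 0.05%) 288 and the high bin (at least 0.05%) 210. A further 366 cells with at least 20 UMIs of Chga were taken as enteroendocrine, 497 cells with at least 3 UMIs of Lgr5 as stem, and 129 cells with at least 0.5% of UMIs from Agr2, Fcgbp and Muc2 as goblet. The last 2 groups overlap the bins: 446 of the Lgr5 cells and 97 of the goblet cells lay in the low bin. Also in the Chga group were 28 of the Lgr5 cells and 15 of the goblet cells. Cells in both groups of a comparison were taken out of the low bin.

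The 2335 cells held 1002 to 129719 UMIs each, with a median of 19078. Median depth was 19633 UMIs in the low bin, 18817 in the middle bin, 23342 in the high bin, 24495 in Lgr5 cells, 12142 in Chga cells and 21042 in goblet cells. The groups' own markers were high in them: enterocyte markers summed to 12904 CPM (a gene's UMIs over all UMIs of the summed cells, scaled as counts-per-million) in the high bin and 1247 CPM in the low bin, stem markers to 10386 CPM in Lgr5 cells, enteroendocrine markers to 64708 CPM in Chga cells and goblet markers to 46744 CPM in goblet cells. These lists include the genes that set the groups (Apoa1, Apoa4, Rbp2, Lgr5, Chga, Agr2, Fcgbp and Muc2), so the sums are partly fixed by the grouping. Paneth cell markers summed to 608 CPM in the high bin and 17569 CPM in the low bin, with 5 of 5 called lower in the high bin, as were 6 of 6 stem and 4 of 4 cycling markers. The low bin is therefore a mixture of crypt cells, and the part of that mixture in the ratios below was not tested. The enteroendocrine list (Chga, Chgb, Tph1, Neurod1, Tac1, Gip and Cck) also stood at 10559 CPM in the high bin against 938 CPM in the low bin. None of its 7 genes was at 0 in either bin. Of these genes, 4 were called higher and 2 lower in the high bin, where 9.69% of all genes were called higher and 17.4% lower. Gip was at 7865 against 52.5 CPM and Chga itself at 31.5 against 31.0 CPM. A share of at least 0.5% from 12 hormone and endocrine genes, a limit chosen after seeing the data, marked these hormone-rich cells: 34 of 210 cells in the high bin, 20 of 288 in the middle bin, 57 of 1471 in the low bin, 21 of 129 goblet cells, 33 of 497 Lgr5 cells and all 366 Chga cells. The bin and group comparisons that they change are given with and without them. Although 1 mouse is named, 1744 cells carried Xist with no Y-linked UMI and 252 carried Y-linked UMIs with little or no Xist; values for both kinds of cell are given below.

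With 1 library there is no replicate and no test. Levels are summed UMIs in CPM with exact 95% Poisson intervals, which cover counting error only. Because the chemistry counts 1 tag per transcript end whatever the transcript's length, CPM values of different enzymes were set side by side without a length correction. A gene is called higher or lower in a group when its levels differ by at least 2-fold and the 2 intervals do not overlap, among genes with at least 50 UMIs in both groups together. Immune cells in the preparation (134 cells, median 2718 UMIs) served as the reading of stray RNA. Of these, 112 lay in the low bin, 18 in the middle bin and 4 in the high bin, and leaving them out gave high-over-low ratios of 55.1-fold for Sis and 130.2-fold for Alpi, near the values below. They gave 4.48 CPM of Sis (2 UMIs), 2.24 CPM each of Alpi and Treh (1 UMI each), no Lct, 15.7 CPM of Anpep and 11.2 CPM of Mgam. Their 71.7 CPM of Dpp4 came largely from a few cells (71.9% of its UMIs from 5 cells); Dpp4 is also known as CD26, a surface protein of T cells. By intervals, all 7 enzymes exceeded the immune level in the high bin, 4 in the middle bin (Sis, Alpi, Anpep and Mgam), 3 in Chga cells (Sis, Mgam and Dpp4), and 2 each in the low bin (Anpep and Mgam), Lgr5 cells (Anpep and Mgam) and goblet cells (Sis and Mgam). Levels not above the immune level could not be told from background, other than for Dpp4, which immune cells do not lack. With no more than 1 UMI each, the immune reference for Lct, Alpi and Treh was wide, with intervals up to 8.27, 12.5 and 12.5 CPM.

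Along the absorptive bins, the enzymes separated into 5 genes that were scarce outside the high bin or much higher in it (Sis, Lct, Alpi, Treh and Anpep) and 2 that differed by less than 2-fold (Mgam and Dpp4). In the low bin Mgam was found in 71.9% of cells and Dpp4 in 65.9%, and Anpep was already present too, in 42.4%. In the high bin against the low bin, 5 of 7 were called higher and none lower, where 9.69% of all 11620 genes measured were called higher and 17.4% lower. The median log2 ratio of the 7 was 4.85, and that of all genes was -0.19; centred on the median of all genes, 12.2% of genes were called higher and 14.2% lower. Lct and Treh reached the minimum of 50 UMIs only through the high bin, so their place among the 5 is fixed by that filter. Alpi, with 47 UMIs in the low bin, also fell just short of the minimum without the high bin. Summed over the 7 genes, brush border enzyme transcripts came to 226 CPM in the low bin, 338 CPM in the middle bin and 1627 CPM in the high bin (1592 to 1663). The mixture changed with the level. Mgam made up 44.8% of the enzymes' UMIs in the low bin, whereas Sis made up 45.6% in the high bin.

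**Figure D1:**
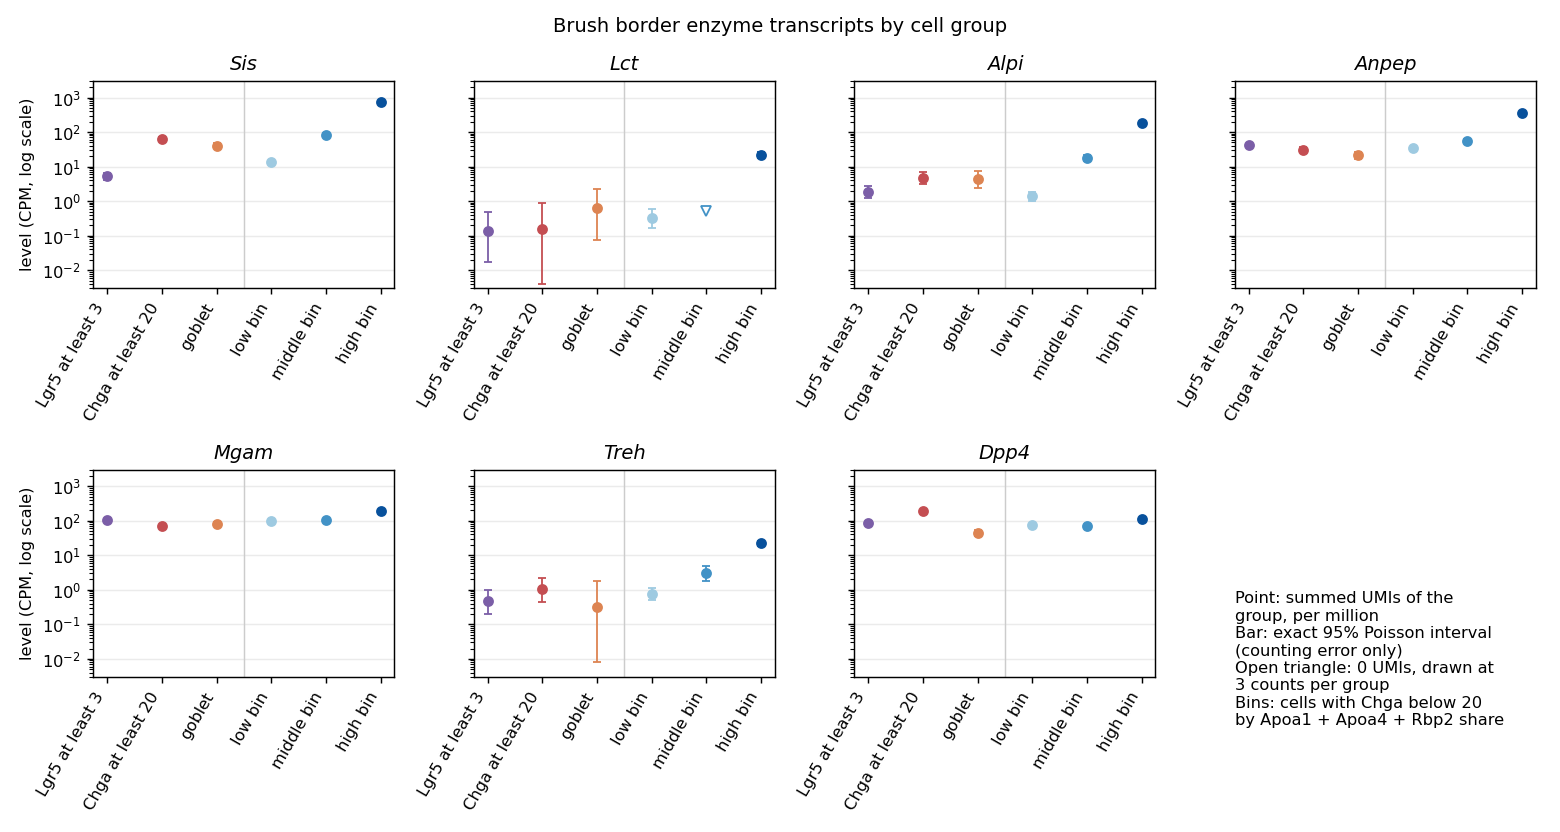
Level of each enzyme (CPM, log scale) in Lgr5, Chga and goblet cells and in the low, middle and high absorptive bins; points are summed UMIs, bars exact 95% Poisson intervals, and the open triangle marks 0 UMIs drawn at 3 counts. Sis, Lct, Alpi, Anpep and Treh peak in the high bin well above every other group, Mgam spans only 68.7 to 198 CPM, and Dpp4 is highest in Chga cells at 187 CPM.

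Upstream sequence was compared between enzymes that climbed steeply and an enzyme that did not. For each gene, the 250 bases before the start given in RefSeq's promoter table were read (GRCm38.p6; all 7 genes matched), which is not tied to the build used by the authors. Sis (chr3:72967864-72968113, minus strand), Lct (chr1:128328319-128328568, minus strand), Alpi (chr1:87101607-87101856, minus strand) and Treh (chr9:44672983-44673232, plus strand) are shown as enzymes of the high bin, and Mgam (chr6:40628581-40628830, plus strand) as the enzyme of nearly even level. Capitals mark matches on either strand. The letters TTTAT, and as a variant TTTAC, were searched for CDX factors. For HNF1 factors the letters were GTTAAT, for HNF4 factors CAAAGTCCA and for GATA factors AGATAA.
Sis: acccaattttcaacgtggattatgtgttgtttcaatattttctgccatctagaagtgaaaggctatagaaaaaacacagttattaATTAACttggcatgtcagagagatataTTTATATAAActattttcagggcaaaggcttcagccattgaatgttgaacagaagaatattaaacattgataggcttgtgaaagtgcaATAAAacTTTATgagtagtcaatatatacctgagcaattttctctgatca
Lct: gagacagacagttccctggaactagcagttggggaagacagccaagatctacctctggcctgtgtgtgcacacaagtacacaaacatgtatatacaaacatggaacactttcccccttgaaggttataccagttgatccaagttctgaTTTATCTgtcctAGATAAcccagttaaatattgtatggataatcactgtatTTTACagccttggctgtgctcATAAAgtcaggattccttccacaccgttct
Alpi: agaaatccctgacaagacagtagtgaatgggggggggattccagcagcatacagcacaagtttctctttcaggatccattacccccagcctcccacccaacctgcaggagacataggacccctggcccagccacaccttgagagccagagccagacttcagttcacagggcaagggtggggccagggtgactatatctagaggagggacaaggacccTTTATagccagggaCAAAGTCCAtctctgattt
Treh: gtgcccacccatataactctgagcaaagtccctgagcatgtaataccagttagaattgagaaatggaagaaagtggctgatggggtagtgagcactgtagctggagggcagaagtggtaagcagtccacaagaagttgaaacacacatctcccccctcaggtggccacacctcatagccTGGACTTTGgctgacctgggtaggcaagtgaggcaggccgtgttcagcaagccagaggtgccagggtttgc
Mgam: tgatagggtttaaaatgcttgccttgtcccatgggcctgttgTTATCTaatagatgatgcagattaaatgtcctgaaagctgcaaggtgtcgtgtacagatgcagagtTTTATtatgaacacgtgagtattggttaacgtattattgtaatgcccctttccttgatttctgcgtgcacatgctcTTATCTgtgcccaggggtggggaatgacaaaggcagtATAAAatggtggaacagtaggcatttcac
The Sis sequence held 4 matches to TTTAT, 2 of them directly adjoining, and the only match to GTTAAT among the 7 genes; 37.3% and 6.43% of all 32851 promoter sequences of this length hold these letters. CAAAGTCCA was found in Alpi, 19 to 11 bases before the start, and in Treh, 71 to 63 bases before it on the opposite strand, and in 0.384% of all sequences. AGATAA was found in Lct, Mgam and Dpp4 (there inside the annotated gene, whose span begins upstream of the table's start) and in 9.99% of all sequences, and in Lct 1 of its 2 matches overlaps a TTTAT. Anpep held none of these letters. TTTAT was found in 5 of the 7 genes, and TTTAC in Lct alone, against 28.3% of all sequences. TTTAT and AGATAA were thus present in steep and level enzymes alike. GTTAAT and CAAAGTCCA were found only in steep enzymes, in 1 and 2 genes. A match is a description of the window, not a site.

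Sis, sucrase-isomaltase, which cleaves sucrose and the branch points of starch fragments, was the most abundant of the 7 transcripts in the high bin. It stood at 13.4 CPM in the low bin (12.2 to 14.7), 84.0 CPM in the middle bin (76.8 to 91.7) and 742 CPM in the high bin (719 to 767), with no overlap at either step. High over low was 55.4-fold (50.3 to 61.3), and middle over low 6.27-fold, or 13.9-fold without hormone-rich cells. Each cell of at least 2000 UMIs was thinned to that depth, which left out 89 low-bin and 24 high-bin cells. Sis was then found in 2.03% of low-bin, 9.03% of middle-bin and 55.9% of high-bin cells. It was found in 0 of 107 immune cells, which allows a share of up to 3.39%. Before thinning, with all cells kept, the shares in the 3 bins were 10.2%, 36.1% and 82.9%. Single high-bin cells ran from 0 to 5013 CPM of Sis, with a median of 349 CPM, and the median low-bin cell had none. The low-bin value was set by few cells. All 11 low-bin cells with at least 10 Sis UMIs were hormone-rich, and hormone-rich cells held 64.2% of the Sis UMIs of the bin. Without hormone-rich cells, Sis was 784 CPM in the high bin against 4.91 CPM in the low bin, which is at the immune level, and the ratio was 160-fold.

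Lct, lactase, which cleaves milk sugar and is known to decline after weaning in mice, was found mainly at the far end of the high bin. It had 11 UMIs in the low bin (0.33 CPM), none in the middle bin (up to 0.50 CPM by a limit of 3 counts) and 106 in the high bin (21.4 CPM; 17.5 to 25.9). High over low was 65.8-fold (35.3 to 136), and high over middle was at least 42.5-fold. Only 22 of 210 high-bin cells contained it, and 5 cells held 65.1% of its UMIs. Leaving out the 17 cells with an absorptive share of at least 1% left 13 UMIs, or 2.87 CPM (1.53 to 4.91), and too few UMIs for a call.

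Treh, trehalase, which splits the fungal and insect sugar trehalose, had a low level and was likewise highest in the high bin. It stood at 0.77 CPM in the low bin (26 UMIs), 3.02 CPM in the middle bin (18 UMIs) and 22.2 CPM in the high bin (110 UMIs; 18.3 to 26.8), with 28.9-fold for high over low (18.7 to 46.2). The middle-over-low ratio rested on 44 UMIs and was not called. Without the 17 cells of at least 1%, Treh was 8.84 CPM in the high bin, 11.5-fold over the low bin.

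Mgam, maltase-glucoamylase, the partner of sucrase-isomaltase in starch digestion, was level over the low and middle bins and higher in the high bin by near the 2-fold limit. It stood at 101 CPM in the low bin (98.0 to 105), 106 CPM in the middle bin (97.8 to 114) and 198 CPM in the high bin (186 to 211). The low and middle intervals overlapped, and high over low was 1.95-fold (1.82 to 2.10), just under the limit. It was the most abundant enzyme transcript in the low bin, in 71.9% of cells, and after thinning in 16.4% of low-bin and 25.8% of high-bin cells, against 2.80% of immune cells. Without hormone-rich cells the ratio was 2.07-fold and Mgam was called, giving 6 of 7; centred on the median of all genes it was also called. Without the 17 cells of at least 1% it was 1.52-fold. Under 26 alternative settings for high over low, Mgam was called in 9.

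Alpi, intestinal alkaline phosphatase, which dephosphorylates nucleotides and bacterial lipopolysaccharide in the gut lumen, had the highest ratio of the 7 with all cells kept; without hormone-rich cells it was 146-fold, under the 160-fold of Sis. It stood at 1.39 CPM in the low bin (1.02 to 1.85), 17.8 CPM in the middle bin (14.6 to 21.5) and 183 CPM in the high bin (171 to 195). High over low was 132-fold (98.1 to 180), middle over low 12.8-fold and high over middle 10.3-fold. After thinning it was found in 0.362% of low-bin, 1.39% of middle-bin and 24.7% of high-bin cells. In the low bin 45 cells held its 47 UMIs, and the level did not exceed that of immune cells. Akp3, a near-identical relative, had 12 UMIs in all cells; reads could be split between the 2, so the Alpi level is uncertain to that extent.

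The 2 peptidases behaved differently from each other. Anpep, aminopeptidase N, which removes amino acids from the ends of peptides, stood at 34.4 CPM in the low bin (32.4 to 36.4), 56.8 CPM in the middle bin (50.9 to 63.2) and 349 CPM in the high bin (333 to 366), a high-over-low ratio of 10.2-fold (9.43 to 11.0). Its middle-over-low ratio of 1.65-fold stayed under the limit. Dpp4, dipeptidyl peptidase 4, which removes dipeptides and inactivates the incretin hormones, stood at 74.8 CPM in the low bin (71.9 to 77.8), 70.6 CPM in the middle bin (64.0 to 77.7) and 111 CPM in the high bin (102 to 121). The low and middle intervals of Dpp4 overlapped, and high over low was 1.48-fold. In hormone-rich cells of the high bin Dpp4 was 240 CPM, against 95.4 CPM in the other 176 cells of the bin. Without hormone-rich cells high over low was 1.30-fold for Dpp4 and 11.5-fold for Anpep.

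In the middle bin against the low bin, 2 of the 5 enzymes measured were called higher (Sis and Alpi), where 2.07% of 11604 genes were called higher and 2.38% lower. In the high bin against the middle bin, 5 of 7 were called higher, where 5.73% of 9565 genes were called higher and 9.94% lower: Alpi, Sis (8.84-fold, or 11.5-fold without hormone-rich cells), Treh (7.34-fold), Anpep (6.15-fold) and Lct, with Mgam at 1.87-fold and Dpp4 at 1.57-fold. Here too Lct and Treh reached 50 UMIs only through the high bin, which fixes their place among the 5. The bins are ranges of a continuous share. Within 20% of the 0.01% limit lay 131 cells and within 20% of the 0.05% limit 49 cells, and 69 middle-bin cells were placed there by 1 UMI (median depth 3768 UMIs).

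Finer steps of the absorptive share, chosen after seeing the data, showed where along it each enzyme stood above its low-bin level. Sis was 43.0 CPM at 0.01 to 0.02% and 160 CPM at 0.02 to 0.05%. Without hormone-rich cells Sis was 4.20 CPM at a share of 0, 27.5 CPM at 0.01 to 0.02% (22.4 to 33.4, above the immune interval) and 144 CPM at 0.02 to 0.05%. Alpi at 0.01 to 0.02% was 5.18 CPM, inside the immune interval and read as background, and it was 41.2 CPM at 0.02 to 0.05%. Anpep was 34.7 CPM at 0.01 to 0.02% and 97.7 CPM at 0.02 to 0.05%. Mgam held 96.0 to 114 CPM over the 5 steps below 0.1% and Dpp4 held 65.4 to 74.8 CPM there. In the last step, at least 1% (17 cells), all 7 were at their highest: Sis 2631 CPM, Anpep 1293, Mgam 658, Alpi 471, Dpp4 373, Lct 218 and Treh 164 CPM. Lct had been 2.35 CPM at 0.2 to 0.5% (56 cells) and 19.9 CPM at 0.5 to 1% (16 cells), and 93 of its 106 high-bin UMIs lay in the last step. The last 2 steps hold fewer than 20 cells each, and their Poisson intervals do not cover the spread between cells.

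**Figure D2:**
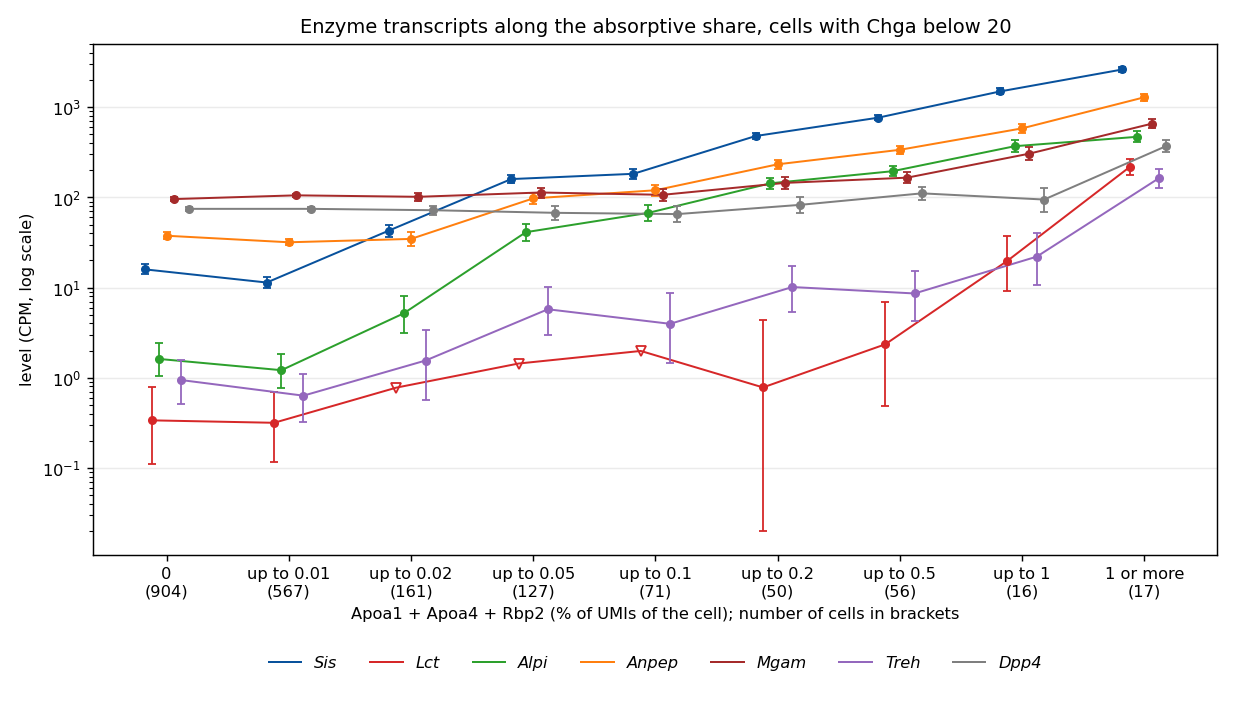
Level of each enzyme (CPM, log scale) in 9 steps of the Apoa1, Apoa4 and Rbp2 share, for cells with Chga below 20; bars are exact 95% Poisson intervals and open triangles mark 0 UMIs drawn at 3 counts. Sis and Alpi are above their low-bin levels from 0.01% on, and Alpi reaches 41.2 CPM at 0.02 to 0.05%. Mgam and Dpp4 stay level up to 0.1%, and Lct and Treh reach 218 and 164 CPM in the last step of 17 cells.

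Within the high bin, many cells held most of the enzymes, and detection followed depth. At least 5 of the 7 were found in 103 of 210 cells and all 7 in 15 cells, against 2 of 1471 cells and no cell in the low bin. Cells with Sis had a median of 25137 UMIs, against 1789 in cells without it. In the 150 cells of at least 5000 UMIs that are not hormone-rich, 95.9% of the cells with Alpi held Sis and 97.6% held Anpep, close to the 94.7% of all these cells that held each. Lct and Treh went together more: Treh was found in 15 of 18 such cells with Lct, against 29 of 132 without it, at median depths of 27850 and 26028 UMIs. The 22 cells with Lct had a median absorptive share of 2.42%, against 0.13% in the 188 cells without it. Cells with Lct had 2241 CPM of Sis against 546 CPM in cells without it, and 1017 against 262 CPM of Anpep. Treh was 120 CPM in cells with Lct (found in 16 of 22) and 9.36 CPM in those without. Mgam was 564 against 150 CPM and Dpp4 291 against 87.2 CPM, so the enzymes of even level across the crypt were also higher in the cells with Lct. The fatty acid binding protein gene Fabp1 was 14489 against 1786 CPM, and the proliferation marker Mki67 5.24 CPM (3 UMIs) against 64.2 CPM.

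Lgr5 cells carried the 2 even enzymes and Anpep, and little of the others. Mgam stood at 105 CPM in Lgr5 cells against 98.5 CPM in the other low-bin cells, Dpp4 at 86.5 against 69.7 CPM, and Anpep at 42.2 against 29.8 CPM; none was called. Sis was 5.26 CPM in Lgr5 cells (4.15 to 6.58) against 19.7 CPM, 0.27-fold, and the 1 enzyme of 5 measured that was called lower, where 3.54% of 11503 genes were called lower and 2.30% higher. Sis was lower in all 25 alternative settings of this comparison and called in 22. The call, but not the direction, was lost without hormone-rich cells. Without them Sis was 3.40 CPM in 464 Lgr5 cells against 6.37 CPM in 973 low-bin cells, 0.53-fold, and no enzyme was called. Alpi (27 UMIs), Lct (2 UMIs) and Treh (7 UMIs) lay within the immune intervals.

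Goblet cells had the lowest Dpp4 and Anpep of the 6 groups, at 44.4 CPM (37.4 to 52.4) and 21.3 CPM (16.5 to 27.0), against 77.4 and 35.6 CPM in the low-bin cells that are not goblet cells; these ratios of 0.57 and 0.60 did not reach the limit. Sis (40.6 against 11.2 CPM, 3.62-fold) and Alpi (4.44 against 1.33 CPM, 3.33-fold) were called higher, 2 of 5 measured, where 8.28% of 11449 genes were called higher and 6.17% lower. Both rested on few cells. Of the Sis UMIs, 86.7% lay in the 21 hormone-rich cells, and the 108 other goblet cells had 6.38 CPM (3.71 to 10.2), against 4.93 CPM in the low bin without hormone-rich cells. Of the 14 Alpi UMIs, 12 lay in 5 cells, and without the 5 cells with most Alpi in each group the direction turned (0.61-fold). Without hormone-rich cells Dpp4 was called lower in goblet cells, at 36.0 against 76.4 CPM (0.47-fold).

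Chga cells had more Dpp4 than any other group. It stood at 187 CPM (177 to 198) against 74.8 CPM in the low bin, 2.51-fold (2.34 to 2.68), and after thinning was found in 36.2% of Chga cells against 13.4% of low-bin cells (90.2% and 65.9% before thinning). Dpp4 made up 52.4% of the 7 enzymes' UMIs in Chga cells. Sis was 64.4 against 13.4 CPM (4.81-fold) and Alpi 4.76 against 1.39 CPM (3.43-fold; 31 UMIs), which makes 3 of 5 measured called higher, where 17.8% of 12018 genes were called higher and 5.56% lower (14.7% and 8.15% when centred on the median of all genes, whose log2 shift was 0.17). Against a low bin without hormone-rich cells Sis was 13.1-fold higher in Chga cells. The Alpi level lay within the immune interval. Mgam was 68.7 against 101 CPM and Anpep 31.2 against 34.4 CPM, neither called.

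The level of Sis differed between hormone-rich cells with different leading hormones. Hormone-rich cells were divided by the most abundant of 6 hormone transcripts (Tac1, Gip, Cck, Gcg, Ghrl and Sst), a division made after seeing the data. Sct, Pyy and Nts were not among them. Ties went to the first in this order, so a cell with none of the 6 counted as Tac1-led, and such cells are not separated here. Sis stood at 586 CPM (535 to 640) in 51 cells led by Cck, 240 CPM (208 to 275) in 48 cells led by Gip, 209 CPM (156 to 275) in 12 cells led by Ghrl and 41.1 CPM (36.1 to 46.5) in 358 cells led by Tac1. The 6 cells led by Sst had none (up to 31.9 CPM by 3 counts), and the 2 led by Gcg had 38 UMIs. After thinning, Sis was found in 55.1% of Cck-led cells (40.2 to 69.3%), close to the 57.7% (49.5 to 65.6%) of high-bin cells that are not hormone-rich, and in 6.07% of Tac1-led cells. Alpi did not accompany it: Alpi was 3.62 CPM in Cck-led, 3.51 CPM in Gip-led and 4.78 CPM in Tac1-led cells, against 204 CPM in the high bin without hormone-rich cells. Nor did Fabp1, at 38.7 CPM in Cck-led cells against 3617 CPM there. Treh was 0 in Cck-, Gip- and Ghrl-led cells and Anpep 96.6 CPM in Cck-led cells (76.6 to 120), whereas Krt20, a keratin of the villus epithelium, was 620 CPM in Cck-led cells and 7.01 CPM in Gip-led cells. Dpp4 was of similar size in all of them, from 160 CPM in Ghrl-led to 214 CPM in Cck-led cells, with overlapping intervals.

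**Figure D3:**
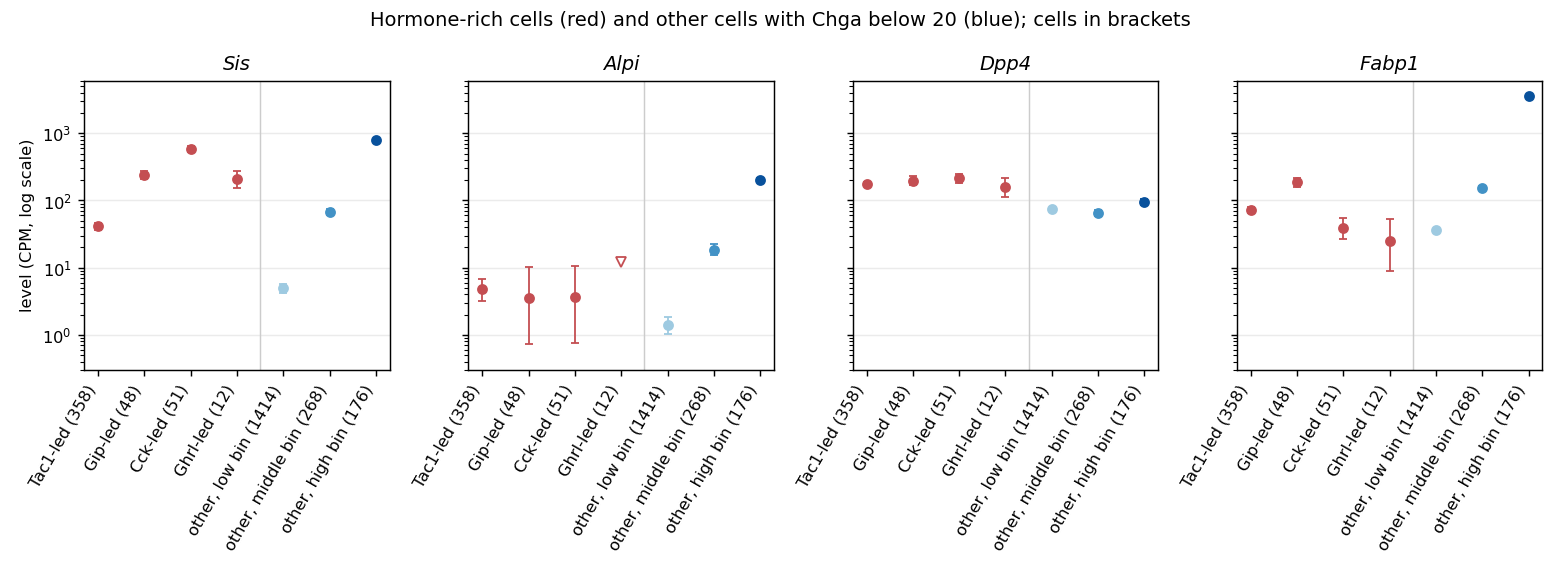
Levels (CPM, log scale) of Sis, Alpi, Dpp4 and Fabp1 in hormone-rich cells by leading hormone (red) and in the other cells with Chga below 20 by absorptive bin (blue), with exact 95% Poisson intervals; the open triangle marks 0 UMIs drawn at 3 counts. Cck-led cells reach 586 CPM of Sis with 3.62 CPM of Alpi, while the high bin has 784 and 204 CPM.

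The same picture held inside the bins. The 34 hormone-rich cells of the high bin had 394 CPM of Sis against 784 CPM in its other 176 cells, but 5.66 CPM of Alpi (3 UMIs) against 204 CPM and no Treh against 24.9 CPM; Gip, at 73274 CPM, was their leading hormone, and their Rbp2, 1 of the 3 genes that define the bin, was 1876 against 3572 CPM. Of the 11 low-bin cells with at least 10 Sis UMIs, 10 had no Alpi and 9 no Fabp1. A doublet caller (Scrublet) marked 2 of 2335 cells at its own threshold, which is too few to be usable; among the 140 cells with the highest scores were 81 Chga cells and 99 hormone-rich cells, and none of these 11. The part of doublets in these levels was not tested further.

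Levels in high-bin cells that are not hormone-rich differed between splits of the library. By hashtag, Sis was 542 CPM in the 48 cells of tags 1 and 2, 645 CPM in the 29 cells of tags 3 and 4 and 957 CPM in the 99 unassigned cells, and Alpi was 151, 168 and 243 CPM. Lct was 21.8 CPM in tags 1 and 2, 3.74 CPM in tags 3 and 4 (3 UMIs) and 31.1 CPM in unassigned cells. The median absorptive share moved with these values, at 0.109, 0.133 and 0.192%. Cells with at least 3 YFP UMIs (13 cells) had 601 CPM of Sis (526 to 683) against 817 CPM in 154 cells with none, and 218 CPM of Alpi (174 to 270) against 206 CPM. Mgam was 123 against 225 CPM, Anpep 246 against 405 CPM and Lct 0 UMIs against 27.0 CPM in these cells, while Fabp1 was 1876 against 3899 CPM. Cells with Y-linked UMIs (13 cells) had 128 CPM of Sis and 80.0 CPM of Alpi, against 844 and 216 CPM in 138 cells with Xist, no Lct and 1 UMI of Treh, against 20.1 and 24.7 CPM, with Fabp1 at 583 against 3802 CPM. With 13 cells in a split, these are values of few cells, and the part of the absorptive share, the sort or the animal in them was not tested.

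Over all 2335 cells, the genes closest to each enzyme were taken as those with the highest Pearson r of log-scaled UMI shares among 10288 genes; cells share the library and differ in depth, so r is a description. Alpi, Sis and Anpep shared Gsta1, a glutathione transferase, as their closest gene (r = 0.76, 0.65 and 0.57), and Alpi and Anpep shared Clec2h (0.72 and 0.54). Sis was next closest to Krt20 (0.65) and Papss2 (0.64), and Anpep to Mep1b, the beta subunit of the peptidase meprin (0.56). Lct was closest to Cyp3a11 (0.74), Ggt1 (0.74) and Dpep1 (0.67), and Cyp3a11 (0.58) and Ggt1 (0.56) were also among the genes closest to Treh. Lct and Treh were correlated at 0.60, as were Sis and Alpi. Mgam had lower values, with Prap1 (0.42), Ccl25 (0.38) and Cldn15 (0.37). Dpp4 stood apart: its closest genes were Pam, Cpe and Pcsk1 (0.47, 0.45 and 0.45), which encode enzymes of peptide hormone maturation, and its r with the other 6 enzymes ran from -0.02 to 0.15.

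Other genes of the brush border and of absorption were read from lists in the same contrast, high bin over low bin. Over all genes 9.69% were called higher and 17.4% lower in it. Of 13 other brush border hydrolases measured (of 19), 10 were called higher and none lower, with a median log2 ratio of 3.70. Examples are Enpep and Mep1b, both peptidases (120 against 2.87 CPM and 137 against 3.34 CPM), and Mme, neprilysin (109 against 16.1 CPM). Ceacam1, an adhesion protein with the most UMIs of this list, was 124 against 216 CPM and not called. Of 15 nutrient transporters, 14 were called higher and 1 lower, also with a median of 3.70. The sodium-glucose transporter Slc5a1 was 250 against 49.1 CPM, the amino acid transporter chain Slc3a2 119 against 49.2 CPM, and the nucleoside transporter Slc28a2 was the 1 called lower, at 1.21 against 4.76 CPM.

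The structural genes of the microvillus had smaller ratios. Of 15 measured (of 16), 10 were called higher and none lower, with a median log2 ratio of 1.34: the actin bundler Vil1 was 295 against 117 CPM, the microvillar motor Myo1a 289 against 77.7 CPM and the protocadherin Cdhr5 230 against 46.0 CPM, while the membrane linker Ezr, at 214 against 126 CPM, was not called. Of 19 transcription factors of the absorptive lineage measured (of 20), 3 were called higher and 2 lower, with a median of 0.13; these shares are near those over all genes. The most abundant were level, with Klf5 at 595 against 467 CPM, Elf3 at 388 against 274 CPM and Onecut2 at 188 against 200 CPM. The 3 higher ones, named after their values were seen, were Creb3l3 (160 against 2.93 CPM), Maf (105 against 6.98 CPM) and Hnf4g (138 against 38.0 CPM); the 2 lower ones were Foxa3 and Foxa2. Of 11 zonation genes measured (of 12), 8 were called higher and 1 lower (Slc28a2 again, which both lists hold), with a median of 2.64. Reg3b, an antimicrobial lectin of the lower villus, was 8079 against 632 CPM and Lypd8 3890 against 978 CPM. The upper-villus gene Ada was 5.45 against 10.5 CPM and Nt5e had too few UMIs to be measured. The 7 enzymes, with a median of 4.85, include Lct and Treh, which were measured only through the high bin.

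**Figure D4:**
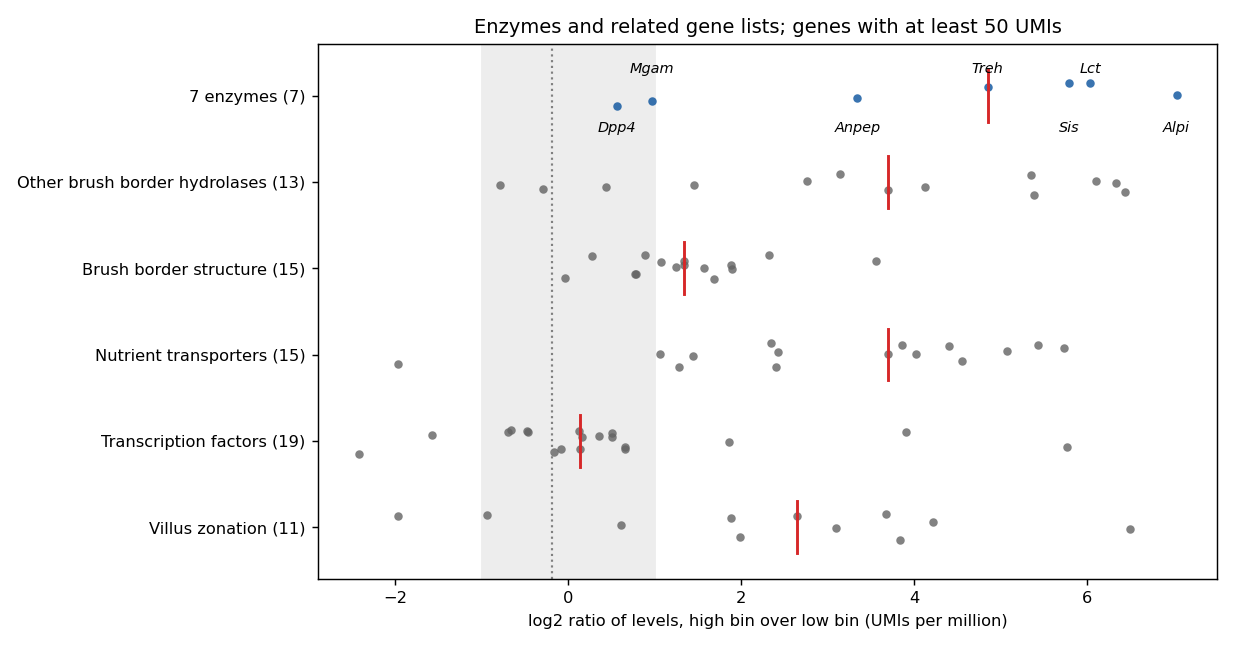
log2 ratio of levels (CPM), high bin over low bin, for the 7 enzymes (blue, named) and 5 related gene lists (grey), genes with at least 50 UMIs; red bars are list medians, the grey band is the range under 2-fold and the dotted line the median of all genes (-0.19). Hydrolases and transporters have medians of 3.70, structural genes 1.34 and transcription factors 0.13.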

How the data were processed

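Unique molecular identifiers (UMIs) were counted in 1 single-cell 3′ gene expression library, and antibody tags in 1 hashtag library. The deposited count table held raw UMI counts of 31055 genes in 2335 cells, and all its entries equalled those of the deposited matrix of 11248 barcodes. Cell Ranger and Seurat are named without versions per the submitters' processing notes, which give the build as GRCh38 although the gene IDs are mouse ones; how the 2335 cells were selected was not stated in the labels or headers. Hashtag counts, raw as deposited, only divided cells by tag; no source used here ties tags to sorts.

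Cells were grouped by fixed limits on UMIs, UMIs were summed per group, and levels were compared as CPM with exact 95% Poisson intervals (Clopper-Pearson for shares of cells). Genes needed 50 UMIs over the 2 groups, and a sum of 0 was set to 3 counts for a bound. With 1 library no p-value was computed. Cells with at least 0.1% of UMIs from immune markers gave the background. Shares were also computed after thinning to 2000 UMIs, with cells of fewer UMIs left out. Scrublet (scanpy 1.11.5) left out 6% of cells in an alternative only, so doublets stayed in. Genes named from a list were those with most UMIs over all cells, and the 3 genes of highest r were named for each enzyme, apart from 1 that is not reported here. Slc28a2, Ada, Nt5e, Foxa2 and Foxa3 were named after their values were seen. The members and lists were chosen with earlier results of these data known. Python 3.11.15, numpy 2.4.6, scipy 1.17.1, pandas 2.3.3 and matplotlib 3.10.9 were used.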

Additional observations from a re-analysis of the deposited data

Results flagged for a closer look

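The barcodes of the matrix that the authors' table leaves out held a signal outside the main measurement. Of 7929 such barcodes with at least 1000 UMIs, 1762 met the limits of the high bin, and the 7 enzymes summed to 1207 CPM in them (1185 to 1229), against 1627 CPM in the kept high-bin cells. Single enzymes in left-out high-bin barcodes against left-out low-bin barcodes were Sis 455 against 35.5 CPM, Anpep 268 against 39.2 CPM, Mgam 203 against 94.3 CPM, Alpi 138 against 7.43 CPM, Lct 34.3 against 0.37 CPM, Treh 21.1 against 1.6 CPM and Dpp4 87.4 against 60.4 CPM. The median mitochondrial share of these high-bin barcodes was 21.0%, whereas no kept cell exceeded 12.5%, and 875 of the 1762 were hormone-rich. The part of damaged cells and stray RNA in these levels was not tested.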

How the results depend on the processing

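Of 154 recounts of enzymes called in the 6 comparisons under 28 alternatives, 2 of which were chosen after seeing the data, 120 stayed within 1.5 times the main count. Among 873 recomputed ratios, 7 changed direction where the main ratio had been called higher or lower. Uncalled ratios that changed sign are not in that count. Alpi in Lgr5 over low, for example, was negative in 7 of 25 alternatives. The cause was not tested unless given. High over low (5 called) and high over middle (5) both gave 3 in tags 1 and 2, in tags 3 and 4 and after thinning to 2000 UMIs, and 2 in cells with Y-linked UMIs, where fewer cells or UMIs leave fewer genes measured. Middle over low (2) gave 4 with doubled limits or without Rbp2, 1 in left-out barcodes, in tags 1 and 2 and after thinning, and 0 in cells with Y-linked UMIs. Lgr5 over low (1 lower) gave 3 lower without Rbp2, 2 higher and 1 lower with no minimum fold, and 1 higher and 1 lower in tags 3 and 4. It gave 0 in left-out barcodes, with 10 CPM added and without hormone-rich cells. Chga over low (3) gave 1 in left-out barcodes, in tags 3 and 4 and after thinning. Goblet over low (2, Sis and Alpi higher) gave only Sis with halved limits, with groups that share no cells, in tags 1 and 2 and in cells with Xist. The same held in cells with Y-linked UMIs, by the mean of single-cell shares, with 10 CPM added and after thinning. Without the 5 cells with most UMIs of the gene neither was called, and Anpep was called lower. At 1.5-fold there were 2 higher and 2 lower, and with no minimum fold 2 higher and 3 lower. Without hormone-rich cells the 2 called were Alpi (higher) and Dpp4 (lower). Reversed log2 ratios, among those called in the main setting, were Alpi in Chga cells (-1.19 without Rbp2, -0.61 in left-out barcodes), Alpi in goblet cells (-1.35 without Rbp2, -0.71 without its 5 top cells, -0.57 in left-out barcodes), Sis in goblet cells (-0.22 without Rbp2) and Treh in high over middle (-0.66 in cells with Y-linked UMIs, on 1 and 3 UMIs). Without Rbp2 the low bin held 457 Alpi UMIs, against 47. High over low for Alpi (132-fold) ran from 16.9-fold with 10 CPM added, 18.6-fold in left-out barcodes and 36.1-fold without Rbp2 to 156-fold in tags 3 and 4. For Sis (55.4-fold) it ran from 7.77-fold in cells with Y-linked UMIs, 12.8-fold in left-out barcodes, 20.5-fold in tags 1 and 2 and 25.9-fold after thinning to 160-fold without hormone-rich cells. The median log2 ratio of all genes was -0.13 in high over middle and -0.12 in goblet over low. No paired analysis was possible because there is 1 library and the groups share no replicate numbers. Depth limits Lct and Treh outside the high bin, where their levels did not exceed the immune level. That reference, 0 UMIs of Lct and 1 of Treh, cannot tell stray RNA from a low level. Treh in the middle bin (1.79 to 4.78 CPM) was above the low bin (0.50 to 1.13 CPM).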
